A study of Rattus norvegicus with 4 samples.

Results

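The expression of 8 genes of alkylation, base excision and mismatch repair was examined in the mammary gland of Lewis rats. The rats had or had not borne a litter. These routes act on the DNA lesions made by N-methyl-N-nitrosourea (MNU) or, for mismatch repair, on the mispairs that follow, while 1 of the genes, Ogg1, removes oxidized guanine. The 8 genes, Mgmt, Mpg, Ogg1, Apex1, Polb, Xrcc1, Msh6 and Parp1, were listed for their function in repair, and no measured value enters that rule, though the list was drawn up with earlier results of these data known. Of these, 7 were each represented by 1 array feature carrying the gene's symbol, and all 7 passed the intensity filter, beside 6180 genes that passed in all. No feature used here carries the symbol Msh6, and Msh6 was not analysed here.

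Total RNA was measured on 4 arrays, 1 for each of 4 groups of 5 animals. The parous group had a litter at 87 days of age and nursed it over 21 days. The litter was taken away at 108 days, and 28 days of involution followed before examination at 136 days. The AMV group consisted of age-matched virgin rats, also examined at 136 days. Neither group received MNU. The parous+MNU and AMV+MNU groups had the same histories, received 1 intraperitoneal injection of MNU at 50 mg/kg at 136 days, and were studied at 157 days, 3 weeks after the injection. MNU is a methylating agent widely used to produce mammary carcinoma in rodents. MNU and 3 more weeks of age cannot be told apart in this design. The sources used here do not say how the RNA of 5 animals came onto 1 array.

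MNU transfers methyl groups to DNA bases, and the products are removed by separate routes. O6-methylguanine is reversed directly by the protein of Mgmt, which takes the methyl group onto itself and is consumed in doing so; left in place, it pairs with thymine and the mispair is seen by mismatch repair. The N-methylated purines are cut out by the Mpg glycosylase, after which the Apex1 endonuclease opens the abasic site, Polb fills the gap, and Xrcc1 holds the proteins of the sealing step together at breaks that Parp1 detects.

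The 4 arrays differed in overall brightness, with median deposited intensities from 179 to 238 units and from 390 to 795 blanks per array, the lowest median and the most blanks being those of parous+MNU. Levels below are intensities after quantile normalization, in arbitrary units, unless called deposited; 1 feature's level cannot be set against another's. Markers of gland epithelium were present on all 4 arrays: the summed level of 6 luminal markers with a named feature, of 10 listed, was 14081 units for parous, 13335 for AMV, 12859 for parous+MNU and 10540 for AMV+MNU. Epcam, an adhesion protein of epithelial cells, read from 5139 to 6760 units. In whole tissue, fewer cells of a type and less RNA per cell cannot be told apart.

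Direct reversal was represented by Mgmt, and its transcript was lower in both parous glands than in both virgin glands. Mgmt read 611 units on the parous and 617 on the parous+MNU array, against 779 on the AMV and 761 on the AMV+MNU array. The groups did not overlap by parity, and within each parity state the arrays with and without MNU lay close together. As deposited, Mgmt read 657 units for parous, 876 for AMV, 490 for parous+MNU and 792 for AMV+MNU, the same order by parity. The parous gland was 1.28-fold lower without MNU, a log2 difference of -0.35, and 1.23-fold lower after MNU, a log2 difference of -0.30. Of all genes, 2.79% were as far or further below the virgin gland without MNU, and 8.59% after MNU.

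Apex1, the main nuclease for abasic sites, was the other member that was lower in both parous glands. It read 1500 units for parous and 1712 for parous+MNU, against 1987 for AMV and 2136 for AMV+MNU. As with Mgmt, both parous arrays lay below both virgin arrays, and unlike Mgmt, each MNU array read somewhat above its untreated counterpart. As deposited, Apex1 read 1670 units for parous, 2220 for AMV, 1310 for parous+MNU and 2260 for AMV+MNU. The order by parity was the same, but parous+MNU then lay below parous, by a log2 difference of -0.35, where the median of all genes was -0.40. The parous gland was 1.32-fold lower without MNU (log2 difference -0.41, with 1.57% of all genes as far below), and lower by a log2 difference of -0.32 after MNU (7.70% of all genes as far below).

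**Figure D1:**
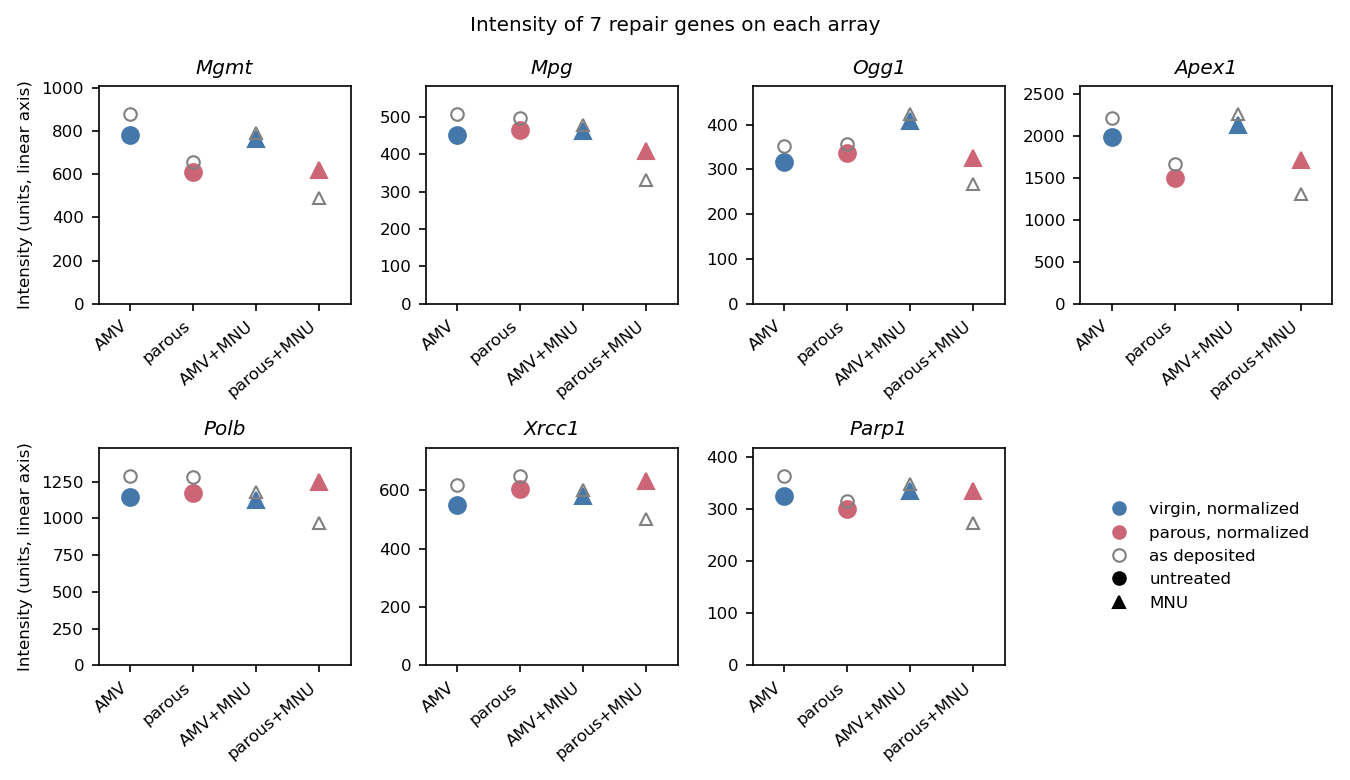
Intensity in units on a linear axis from 0 for the 7 measured repair genes on each of the 4 arrays, with normalized values filled (virgin blue, parous red, MNU as triangles) and deposited values open. Mgmt and Apex1 lie lower on both parous arrays, at 611 and 617 against 779 and 761 units and at 1500 and 1712 against 1987 and 2136 units.

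The stretches of 250 bases before the annotated starts of Mgmt and Apex1, the members whose parous and virgin arrays differed most over both pairs, are shown with that of Xrcc1, whose arrays were ordered the other way by parity, and Ogg1, which was highest on the AMV+MNU array. They are RefSeq sequences of the assembly GRCr8, written 5′ to 3′ on the gene's strand, which is the plus strand for all of them, and lie at chr1:201140582-201140831 for Mgmt, chr15:26617976-26618225 for Apex1, chr1:89268939-89269188 for Xrcc1 and chr4:148030336-148030585 for Ogg1. Capitals mark matches on either strand to the GC box GGGCGG, the E-box CACGTG and the CCAAT box CCAAT.
Mgmt: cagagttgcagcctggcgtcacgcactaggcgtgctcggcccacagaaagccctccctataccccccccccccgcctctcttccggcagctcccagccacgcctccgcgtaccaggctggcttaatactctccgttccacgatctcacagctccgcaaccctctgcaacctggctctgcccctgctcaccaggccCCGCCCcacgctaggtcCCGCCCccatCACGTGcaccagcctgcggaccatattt
Apex1: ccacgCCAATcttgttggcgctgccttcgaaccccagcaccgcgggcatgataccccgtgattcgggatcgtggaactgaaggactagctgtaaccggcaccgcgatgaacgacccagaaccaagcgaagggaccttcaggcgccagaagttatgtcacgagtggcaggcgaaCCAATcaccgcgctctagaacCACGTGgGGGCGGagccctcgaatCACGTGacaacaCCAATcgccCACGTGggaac
Xrcc1: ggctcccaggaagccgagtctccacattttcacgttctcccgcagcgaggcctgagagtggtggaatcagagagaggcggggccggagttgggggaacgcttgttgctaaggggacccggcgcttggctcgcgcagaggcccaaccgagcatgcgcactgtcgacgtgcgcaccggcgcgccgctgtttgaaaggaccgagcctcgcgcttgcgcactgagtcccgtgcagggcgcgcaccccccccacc
Ogg1: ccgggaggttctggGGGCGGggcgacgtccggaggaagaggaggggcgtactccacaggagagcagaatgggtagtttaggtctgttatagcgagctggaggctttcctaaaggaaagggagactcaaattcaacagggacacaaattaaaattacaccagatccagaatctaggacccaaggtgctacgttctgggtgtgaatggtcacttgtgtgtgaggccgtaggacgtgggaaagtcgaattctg

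The Mgmt stretch held 2 GC boxes and 1 E-box, and the Apex1 stretch held 1 GC box, 3 E-boxes and 3 CCAAT boxes, with no overlap between matches. No match to these motifs was found in these 250 bases of Xrcc1, and the Ogg1 stretch held 1 GC box. Among 33469 promoter stretches of equal length, 30.5% held a GC box, 5.59% an E-box and 34.0% a CCAAT box. The cAMP response element TGACGTCA, the TATA box TATAAA and the AP-1 site TGACTCA were also searched, and none was found in these sequences; they occurred in 1.59%, 12.9% and 4.05% of all stretches. The 4 sequences held 17, 24, 27 and 11 CpG dinucleotides in the order shown, where the median of all stretches was 5. These matches describe the letters in these windows. No binding or methylation was measured.

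Among the glycosylases, which cut damaged bases from the sugar backbone, Mpg and Ogg1 were measured. Mpg, which removes 3-methyladenine and 7-methylguanine, read 466 units for parous, 452 for AMV, 408 for parous+MNU and 463 for AMV+MNU. Apart from the parous+MNU array its levels lay between 452 and 466 units, and the array of parous+MNU was lower, by a log2 difference of -0.18 against AMV+MNU and -0.19 against parous. Ogg1, which removes oxidized guanine, read 336 units for parous, 316 for AMV and 326 for parous+MNU, and 408 for AMV+MNU. The AMV+MNU array thus stood above the other arrays, which spanned 316 to 336 units. Ogg1 was 1.29-fold higher with MNU and age in virgin glands, a log2 difference of 0.37 that 5.01% of all genes reached, and differed by -0.04 in parous glands.

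The members that act after the abasic site is opened showed smaller differences. Polb, the gap-filling polymerase, read 1172 units for parous, 1144 for AMV, 1246 for parous+MNU and 1123 for AMV+MNU. Xrcc1, the scaffold of the ligation step, read 603 units for parous, 551 for AMV, 633 for parous+MNU and 580 for AMV+MNU. For both genes the parous arrays lay above the virgin arrays, by log2 differences of 0.04 and 0.15 for Polb and of 0.13 in each pair for Xrcc1, and 19.6% and 24.7% of all genes lay as far above the virgin gland as Xrcc1 did, without and with MNU. As deposited, without scaling, the sign turned in the MNU pair, to -0.29 for Polb and -0.26 for Xrcc1, where the median of all genes was -0.36. Parp1, the enzyme that marks strand breaks with chains of ADP-ribose, read 301 units for parous, 326 for AMV and 336 on each MNU array. Its lowest array was parous without MNU, by a log2 difference of -0.12 from AMV. As deposited, Parp1 read 316 units for parous, 364 for AMV, 274 for parous+MNU and 348 for AMV+MNU, and parous+MNU was then the lowest.

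Differences were counted over the 7 measured members where 1 array was at least 25% above the other, a threshold of 0.322 on the log2 scale. Few members reached it. Without MNU, 2 members, Mgmt and Apex1, were lower by this threshold in the parous gland and none was higher, where 3.41% of 5987 genes were lower and 4.59% higher. After MNU, 1 member, Ogg1 at -0.325, was lower in the parous gland and 0 were higher, where 7.59% of 5679 genes were lower and 6.08% higher. Apex1 at -0.319 and Mgmt at -0.303 lay just short of the threshold. With MNU and age, 1 member, Ogg1, was higher in virgin glands and 0 were lower, where 7.00% of 5814 genes were higher and 5.30% lower. In parous glands 0 of 7 reached the threshold, where 5.31% of 5785 genes were higher and 5.77% lower. At 1.5-fold 0 of 7 members were different in each of the 4 comparisons, in the order just given, where 1.67%, 2.29%, 2.29% and 0.985% of all genes were, and at 2-fold 0 of 7, where 0.451%, 0.423%, 0.396% and 0.0864% were. The member medians were 0.04 and -0.18 for parity without and with MNU, and 0.04 and 0.07 for MNU in virgin and parous glands, beside medians from -0.01 to 0.00 for all genes. The comparison after MNU and that of MNU in virgin glands share the AMV+MNU array. With 1 array per group none of these differences has a replicate check.

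**Figure D2:**
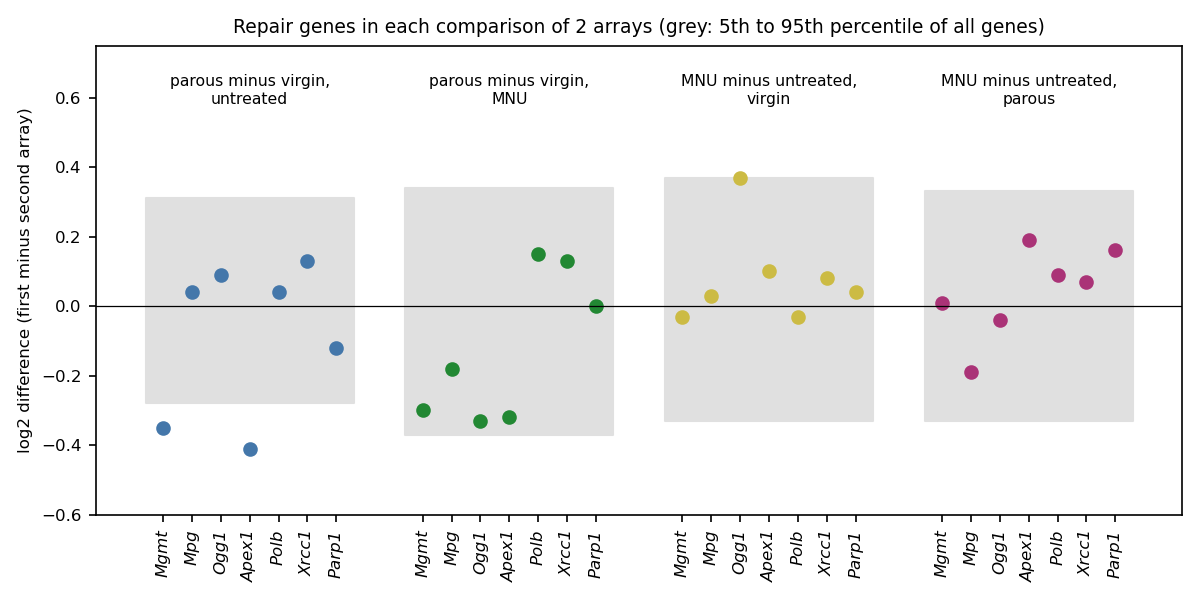
Log2 difference between 2 arrays for the 7 repair genes (points) in each of the 4 comparisons, with the range from the 5th to the 95th percentile of all genes in grey. Mgmt at -0.35 and Apex1 at -0.41 lie below the grey range of -0.28 to 0.31 in the comparison without MNU, and Ogg1 at 0.37 lies at its upper edge for MNU in virgin glands.

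Parity was then tested over both pairs together, with limma and Benjamini-Hochberg adjustment over 5580 genes. Of the 7 members 0 passed for parity, where 1.22% of all genes did. At an unadjusted p under 0.05 limma counted 2, Mgmt and Apex1, where 9.80% of all genes lay under it. Apex1 had a mean log2 difference of -0.36 ± 0.11 (SE, 2 arrays per parity state, 95% interval -0.60 to -0.12, limma adjusted p = 0.202). For Mgmt the mean was -0.33 ± 0.11 (SE, 2 arrays per parity state, interval -0.57 to -0.09, limma adjusted p = 0.257). Both were lower in 2 of 2 pairs. The other 5 had means from -0.12 for Ogg1 to 0.13 for Xrcc1, with limma adjusted p from 0.797 to 0.928, and their intervals reached from -0.39 to 0.37. Arrays of both parity states did not overlap for 4 of 7 members, lower in the parous glands for Mgmt and Apex1 and higher for Polb and Xrcc1, where 18.9% of all genes were lower and 14.5% higher in this way. The fit leaves 1 residual degree of freedom per gene, which comes from how far the parity difference with MNU departs from that without MNU. The residual thus mixes any such dependence with spread between the 4 arrays, and nothing says that this spread is more than technical. Limma combines the residual with a prior drawn from all genes, of 10.9 degrees of freedom, which sets most of each standard error. Genes whose 2 pairs differed alike, such as Mgmt and Apex1, leave a small residual, and their intervals rest mainly on that prior. In the same fit without the prior, the adjusted p was 0.787 for Mgmt and 0.859 for Apex1.

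For MNU with age, 0 of 7 members passed limma and 0 lay under an unadjusted p of 0.05, where 0.251% and 12.7% of all genes did. Mgmt had a mean log2 difference of -0.01 ± 0.11 (SE, 2 arrays per MNU state, limma adjusted p = 0.98), with a 95% interval of -0.25 to 0.23. The largest means were 0.16 for Ogg1, with an interval of -0.11 to 0.44, and 0.15 for Apex1, with an interval of -0.09 to 0.39 (limma adjusted p = 0.632 and 0.625). Parp1 was the 1 member of 7 whose MNU arrays both lay above both untreated arrays, at 336 units each against 301 and 326, where 21.3% of all genes did so. Without lying above, 0 of 7 had both MNU arrays below both untreated arrays, where 19.8% of all genes did. As deposited, the MNU differences of Parp1 were -0.06 in virgin and -0.21 in parous glands, where the medians of all genes were -0.10 and -0.40. The 95% intervals of all 7 members for MNU lay between -0.33 and 0.44. A difference inside these limits was not resolved with 4 arrays.

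**Figure D3:**
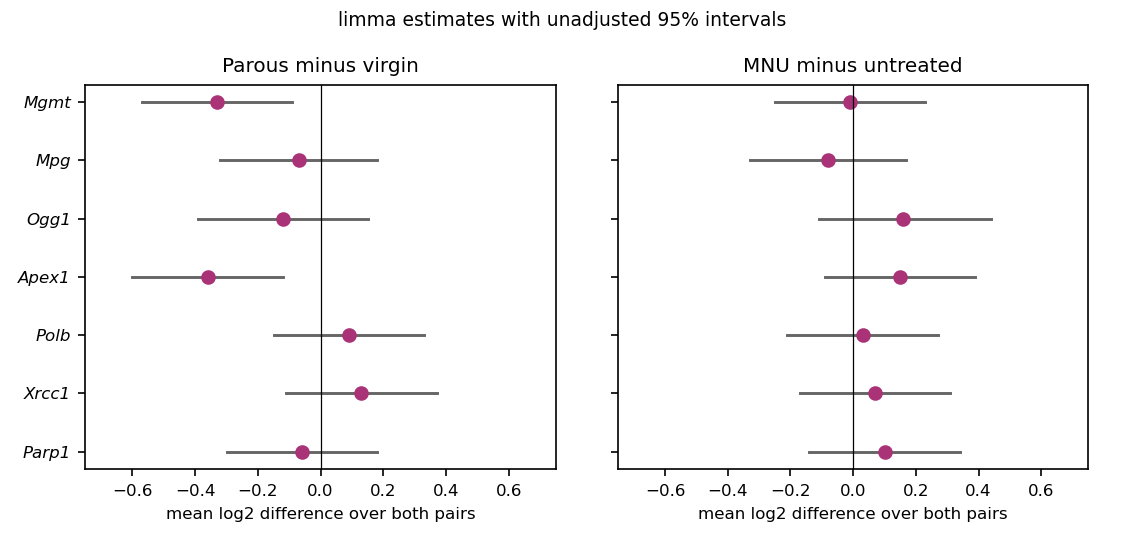
Mean log2 difference over both pairs for the 7 repair genes, parous minus virgin on the left and MNU minus untreated on the right, with unadjusted 95% intervals from limma as lines. The intervals of Mgmt, -0.57 to -0.09, and Apex1, -0.60 to -0.12, lie below 0 for parity, and all intervals for MNU include 0.

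The dependence of the MNU difference on parity cannot be tested with 1 array per group. For Mgmt the parity difference after MNU minus that without MNU was 0.05, for Apex1 0.09, for Polb 0.11, for Xrcc1 -0.01 and for Parp1 0.12 on the log2 scale. It was larger for Mpg, at -0.22, and for Ogg1, at -0.41, whose AMV+MNU array stood above the others.

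The wider pathways were described from 4 lists covering direct reversal, glycosylases, the later steps of base excision and mismatch repair, which hold 52 genes with the members. Of these, 37 had a named feature and 34 passed the intensity filter. Without the members, 24 genes had values on all 4 arrays, and limma passed 0 of them for parity and 0 for MNU with age, with 0 and 4 at an unadjusted p under 0.05, where 9.80% and 12.7% of all genes lay under it, so that 4 of 24 is near the share of all genes. Those 4 were Pms1, Lig1, Rfc2 and Mutyh. Pms1, a mismatch repair protein, read 306 and 328 units on the parous and AMV arrays and 203 and 225 on the parous+MNU and AMV+MNU arrays, lower by log2 differences of -0.60 and -0.54 with MNU and age (limma adjusted p = 0.0548). Its other kept feature read 198, 234, 278 and 241 units on the parous, AMV, parous+MNU and AMV+MNU arrays, with differences of 0.49 and 0.04, and thus did not share the direction. Lig1, the ligase of replication and long-patch repair, was higher by 0.34 in virgin and 0.20 in parous glands (limma adjusted p = 0.335).

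Of the 13 measured genes of the mismatch repair list, 6 were past the 25% threshold above both the AMV and the parous+MNU array on the AMV+MNU array, and limma passed 0 for either factor, with 0 for parity and 2 for MNU at an unadjusted p under 0.05. In virgin glands 6 of 13 were past the threshold upward with MNU and age, where 7.00% of all genes were, and 1, Pms1, downward, where 5.30% were, with a list median of 0.28 against 0.00 for all genes. After MNU 6 of 13 were past it downward in the parous against the virgin gland, where 7.59% of all genes were, with a median of -0.25; both comparisons share the AMV+MNU array. The share of all genes past the threshold above both arrays on AMV+MNU was 2.60%, and 1 of 7 members, Ogg1, was among them. The AMV+MNU array was the highest of the 4 for 2 of 7 members, Ogg1 and Apex1, where it was so for 29.2% of all genes. Exo1, a nuclease of the list, passed the intensity filter through the AMV+MNU array alone, and without it and the genes like it the first count was 6 of 12, against 2.33% of all genes. Rpa1, another subunit of the single-strand binding protein, read lowest on that array, at 421 units against 444 to 484. The 6 genes were Rfc2, Rfc3 and Rfc4, subunits of the clamp loader, Pold1, the catalytic subunit of polymerase delta, Rpa3, a subunit of the single-strand binding protein, and Pms2, a mismatch repair nuclease. Rfc2 read 966 units for AMV+MNU against 689 to 740 on the other arrays, and Rfc4 read 552 against 364 to 437. The clamp loader, the polymerase and the single-strand binding protein act in DNA replication as well as in repair. Pms2 read 226 units for parous, 181 for parous+MNU and 234 for AMV+MNU, and lay at the floor of 176.9 units on the AMV array. Without MNU Pms2 was the 1 of 13 that reached the threshold between parous and virgin glands, and its difference of 0.36 is a bound. In parous glands with MNU and age 0 of 13 were past the threshold upward and 2, Pms1 and Pms2, downward.

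Among the later steps of base excision, Fen1, the flap nuclease of long-patch repair and of replication, had the same pattern. It read 881 units on the AMV+MNU array against 627 to 645 on the others, higher by 0.46 with MNU and age in virgin glands. Pcna, the sliding clamp, read 1792 units for parous, 1740 for AMV and 2322 for AMV+MNU, and was blank on the parous+MNU array. Parg was blank on that array as well, and Hmgb1 had a value on the AMV array alone. Nudt1, which clears oxidized nucleotides, differed by -0.30 between parous and virgin glands without MNU and was higher by 0.40 with MNU and age in parous glands. Among glycosylases Mutyh, which removes adenine paired with oxidized guanine, was higher by 0.35 with MNU and age in parous glands. Ung, the uracil glycosylase, differed by -0.24 there. Of 8 glycosylases with a named feature, 6 passed the filter, and 0 of 6 reached the 25% threshold for parity without MNU. Their parity differences without MNU ran from 0.01 for Nthl1 to 0.21 for Ung, with a median of 0.07 against -0.01 for all genes. The shared sign depended on scaling. As deposited, Mpg differed by -0.03, where the median of all genes was -0.08. In direct reversal Fto, an RNA and DNA demethylase, read 330 to 365 units.

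**Figure D4:**
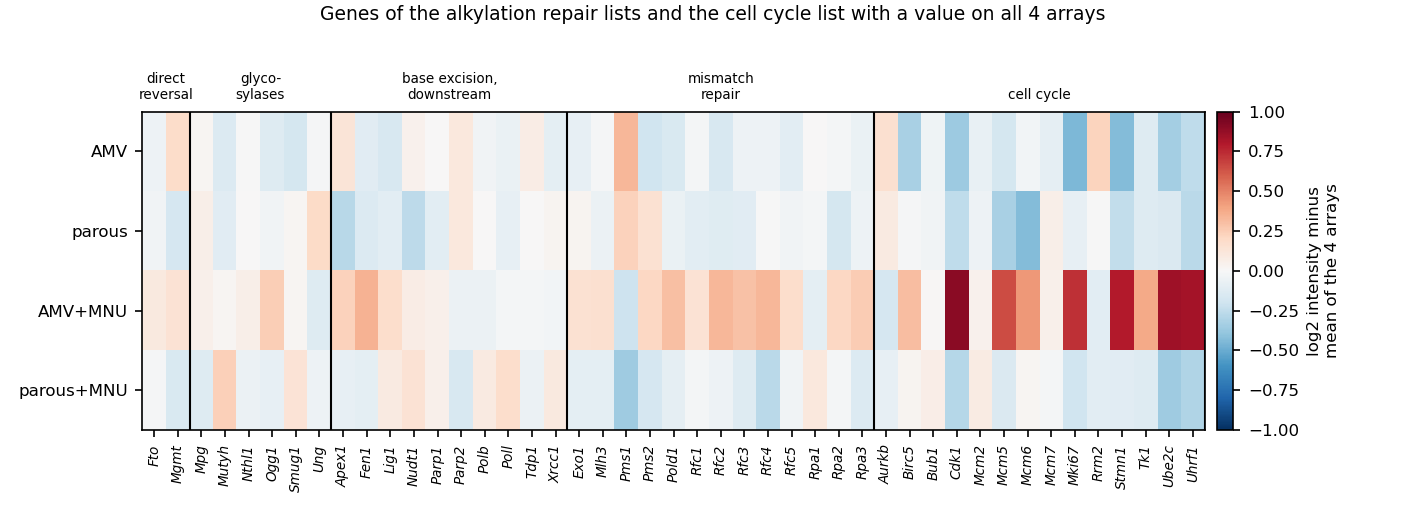
Log2 intensity minus the mean of the 4 arrays, in colour from -1 to 1, for genes of the 4 alkylation repair lists and the cell cycle list with a value on all 4 arrays; Pms2, Rrm2, Tk1 and Uhrf1 lay at the floor on some arrays. The AMV+MNU row is reddest over Fen1, Rfc2, Rfc4 and most cell cycle genes, and Mgmt and Apex1 are blue in both parous rows.

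Among 14 cell cycle genes measured on both virgin arrays, 9 were past the 25% threshold upward with MNU and age. Downward there were 2, Aurkb and Rrm2, where 7.00% of all genes were past it upward and 5.30% downward. Rrm2 lay at the floor on both MNU arrays and Tk1 on the AMV array, so that their differences are bounds. Mcm2 stood at 0.11, while its other kept feature stood at 0.61, with 379 units on AMV+MNU against 248 on AMV. Uhrf1 and Tk1, among the 9, passed the intensity filter through the AMV+MNU array alone, and without them 7 of 12 were past it upward, against 6.71% of all genes without such genes. Cdk1, the kinase that starts mitosis, read 851 units on the AMV+MNU array against 353 to 381 on the others. Limma passed 0 of 14 for MNU with age and 0 of 14 for parity, with 8 and 4 at an unadjusted p under 0.05, where 12.7% and 9.80% of all genes lay under it. The part of the cell cycle genes in the differences of Fen1, Pcna, the Rfc genes and Ogg1 was not tested. Mcm6, a subunit of the replicative helicase, differed by -0.41 in each parity pair and by 0.46 and 0.45 with MNU and age (limma adjusted p = 0.121 and 0.123).

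In the list for the p53 and checkpoint response the counts past the threshold were 1, 1, 0 and 1 of 8 over the 4 comparisons. The calls were Mdm2 at -0.39 for parity without MNU, Bax, a p53 target that promotes cell death, at -0.43 for parity after MNU, and Mdm2 at 0.35 for MNU in parous glands. Bax read 499 units on the AMV+MNU array against 369 to 404 on the others. Cdkn1a, the p53 target that halts the cell cycle, read 275 units for parous, 307 for AMV, 290 for parous+MNU and 337 for AMV+MNU. Mdm2, the ligase that restrains p53, read 231, 225 and 255 units for AMV, parous+MNU and AMV+MNU and lay at the floor on the parous array, so that its differences against that array are bounds. Limma passed 0 of 8 for either factor, with 1 at an unadjusted p under 0.05, Mdm2 for parity, where 9.80% of all genes lay under it. Of the lists for repair by other routes, 4 of 16 nucleotide excision genes and 5 of 22 double-strand break genes passed the filter. Of these, 0 reached the 25% threshold in any of the 4 comparisons. So few genes cannot tell 0 from the shares of all genes given above. Xrcc5, a subunit of the Ku end-binding protein, had parity differences of -0.19 and -0.28 (limma adjusted p = 0.517).

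Markers of other cell types also differed along parity, beside Mgmt and Apex1. The summed level of 4 adipocyte markers, Lep, Cidec, Pparg and Slc2a4, was 4164 units for parous and 4999 for parous+MNU against 5085 for AMV and 6180 for AMV+MNU. A further marker, Fabp4, had no value on the MNU arrays, and Adipoq and Lpl were blank on all 4. The summed level of 4 skeletal muscle markers was 1805 and 2065 units for parous and parous+MNU against 2222 and 2373; 1 of them, Actn3 of fast fibres, was lower at a mean log2 difference of -0.59 (limma adjusted p = 0.0217). Cidec and Slc2a4, of the fat droplet and of glucose uptake, differed by means of -0.49 and -0.56 (limma adjusted p = 0.0585 and 0.054), while the other adipocyte markers, Lep and Pparg, had means of -0.04 and 0.03, so that after MNU 2 markers of 4 lay below 0. Slc2a4 also read higher with MNU and age, by 0.79 in virgin and 0.38 in parous glands (limma adjusted p = 0.0786). Plasma cell and B cell markers, 3 in all, summed to 4981 and 4147 units in the parous glands against 1306 and 1332. The marker among them that passed the filter was Jchain, the joining chain of secreted antibody, higher by 2.16 and 1.84 without and with MNU (limma adjusted p = 6.35e-06). Of 6 luminal markers, Muc1, a mucin, was higher in the parous glands by 0.59 and Krt7, a keratin, was lower at -0.56 (limma adjusted p = 0.0217 and 0.0305). Krt19, a keratin of luminal cells, read 4295 and 3704 units on the parous and AMV arrays and 2847 and 2663 on the parous+MNU and AMV+MNU arrays, differing by -0.59 and -0.48 with MNU and age (limma adjusted p = 0.0751). The sum of 7 myeloid markers was 4002 and 3376 units for parous and parous+MNU against 2907 and 3036. Most of it came from Cd14, a receptor of monocytes, at 2959 and 2379 units against 1836 and 2000. Cd14 had a parity mean of 0.47 (limma adjusted p = 0.128). Of the 3 myeloid markers that passed the filter, Cd163 had a parity mean of 0.00 and Mrc1 went the other way, at -0.28 (limma adjusted p = 0.396). Sums of basal markers, from 2502 to 2736 units over 4 of 7 listed, and of T cell markers, from 1829 to 1994 over 7 of 7, varied less, while 3 fibroblast markers summed to 1567 to 1922 and 3 endothelial markers to 3045 to 3638. In each sum the brighter features weigh most. The part of cell composition in the differences of Mgmt and Apex1 was not tested.

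The genes with the profile most like that of Mgmt over the 4 arrays, by Euclidean distance of centred log2 values among 5447 other genes, were Cpa3, a carboxypeptidase of mast cells, at 0.0311, Stard3nl at 0.0484, and Cma1, a chymase of mast cells, at 0.0538. Cpa3 differed by -0.32 and -0.27 between parous and virgin glands. For Apex1, the member with the widest range over the arrays at 1.42-fold, they were Slc13a3, a transporter of dicarboxylates, at 0.0268, Serpinb7 at 0.049 and Fbln5, a protein of elastic fibres, at 0.0518. Apex1 itself ranked 144th of 5447 in likeness to Mgmt. A likeness over 4 arrays is a description of these arrays.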

How the data were processed

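The values were deposited by the authors as intensity on a linear scale, with 3 significant digits and blanks; the sources used here do not describe image processing, background or what a blank means. Of 20500 features, 12750 carried 1 symbol in the platform annotation, 5 several and 7745 none; 12720 were matched by gene identifier to current rat names. No column of another sample was present. Arrays were quantile normalized on the log scale, with the curve taken from features present on all 4 arrays and carried to the rest by interpolation. Values under 176.9 units, the 40th percentile of all arrays pooled, were set to it as a floor, and log2 values were taken. Features had to exceed the pooled 50th percentile (215.1 units) on 1 array or more, and the brightest such feature stood for its gene. Blanks were never filled in. Differences between single arrays carry no p-value. Parity and MNU were fitted additively with limma 3.58.1 in R 4.3.3 (lmFit, eBayes without a trend, Benjamini-Hochberg at 0.05 over 5580 genes), with 10.9 prior degrees of freedom. The procedure was tested on simulated data, in which genes differed by parity alone and by more than the members did. That run does not show how the fit performs at the size of the member differences. Other steps used Python 3.11.15 and matplotlib 3.10.9.

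The members, lists and tests were chosen with earlier results of these data known. Named genes were all members, list genes passing limma or past the 25% threshold in both pairs of a factor, up to 4 genes per list with the largest differences, and the 3 genes most like Mgmt and most like the member of widest range; other genes were named after their values were seen. Alternatives covered scaling, background, floor, filter, features per gene, the fold threshold and limma's settings.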

Additional observations from a re-analysis of the deposited data

Results flagged for a closer look

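Differences of opposite sign in the 2 states compared, with at least 1 of them past the 25% threshold, were found for 7 of 31 genes of the 4 alkylation repair lists with values on all arrays, or 22.6%, and for 516 of 5580 genes in all, or 9.25%. With 1 array per group the difference between the states was not tested. On the log2 scale, the parity difference after MNU minus that without MNU, which equals the MNU difference in parous minus that in virgin glands, was -0.41 for Ogg1, -0.73 for Pms2, -0.48 for Pold1, -0.42 for Rfc2, -0.36 for Rfc3, -0.64 for Rfc4 and -0.41 for Rpa3. All 7 were highest on the AMV+MNU array. Pms2 was past the threshold in both states for parity, at 0.36 without and -0.37 with MNU, and its AMV value lay at the floor.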

How the results depend on the processing

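The parity differences of Mgmt and Apex1 were below 0 in all 10 settings for both pairs. They ran from -0.42 to -0.33 without MNU and -0.69 to -0.30 with MNU for Mgmt, and from -0.43 to -0.33 and -0.79 to -0.32 for Apex1. Each of these genes had 1 feature, which lay above the floor and the filter on all arrays. The floor, filter and feature settings therefore repeat the main values, and only the scaling and background settings could change the sign. In limma 0 of 7 members passed for parity or MNU in all 13 settings; the lowest adjusted p was 0.0831, for Apex1 with the strict filter, and over the settings the adjusted p ranged from 0.136 to 0.787 for Mgmt and up to 0.859 for Apex1. As deposited, without scaling, the median of all genes was -0.36 for parity with MNU and -0.40 for MNU in parous glands, and the members past the 25% threshold numbered 5 in place of 1 and 6 in place of 0, where 59.0% and 64.4% of all genes were past it, while those for MNU in virgin glands numbered 0 in place of 1. For parity with MNU they numbered 3 with median centring, with quantile normalization over all values and with the 1st percentile subtracted as background, where 16.5%, 14.2% and 22.4% of all genes were past it. At 1.5-fold, 0 members were past the threshold in each comparison, against 2, 1, 1 and 0. The MNU difference of Apex1 in parous glands was -0.35 as deposited and -0.04 with median centring, against 0.19. Genes passing limma for parity numbered 68, against 0 without a filter, 141 with the strict filter, 10 with the mean of the kept features and 1 without limma's prior. For MNU they numbered 14, against 70 as deposited, 74 with median centring, 83 with quantile normalization over all values, 0 without a filter, 112 with the strict filter, 5 with the mean of the kept features, and 3 with each feature on its own, with a robust prior and without a prior. Pms1 for MNU passed in 4 of 11 settings, with adjusted p = 0.0304 as deposited, 0.0182 with median centring, 0.0315 with quantile normalization over all values and 0.0362 with background subtracted, at log2 differences of -0.75, -0.58, -0.55 and -0.83; with the mean of its features it stood at -0.15. No paired analysis was possible because no 2 groups share 2 replicate numbers; the additive fit itself compares parity within both MNU states. A fit without any 1 array leaves no residual degree of freedom and was not run. The number of arrays limits the precision throughout.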
